A study of Mus musculus with 8 samples.

Results

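The step from early to later double-positive thymocytes was followed in mice that lack Hdac3 in their T cell lineage. Each gene's level in Hdac3KO DP2 cells was set against its level in Hdac3KO DP1 cells, over the genes that reached 1 FPKM in either group. FPKM are fragments counted per length of transcript and per size of the library. These were 11688 of the 23278 genes that the authors' deposited table lists, and 10231 of them had been tested there. They were chosen by level and not by change, though a gene near 1 FPKM could enter through 1 group alone.

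The cells were GFP+ CD4+CD8+ thymocytes of C57BL/6 mice. DP1 cells had low CD5 and low TCRβ at the surface, and DP2 cells had high CD5 and intermediate TCRβ. Hdac3KO animals carried Hdac3 alleles flanked by loxP sites on both chromosomes (Hdac3F/F) and Cre driven by LCK, whose promoter is active from the earlier CD4-CD8- stage on. The WT control animals were Hdac3+/+ by the series' design text. The sources used here do not say what drives GFP or whether the WT animals carried the LCK-Cre transgene as well. The study holds 8 libraries, 2 for each of 4 groups (Hdac3KO DP1, Hdac3KO DP2, WT DP1 and WT DP2). They were made from pooled RNA depleted of ribosomal RNA.

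The authors' deposited tables give 1 FPKM value per gene and group, so the depth and the values of the separate libraries are unknown and whether libraries of 2 groups overlap cannot be said. Every FPKM and every deposited q below is copied from those tables. A gene was called at a deposited q of 0.05 or less. This q rests on the spread between 2 libraries a group, which may be technical. The error after a log2 change is a standard error (SE) that was derived from the p of those tables, and it is an upper bound where p is at its smallest value, 5e-05. A recomputed q is the Benjamini-Hochberg value after another scaling. In bulk RNA, fewer cells of a kind and less RNA per cell cannot be told apart.

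As background, double-positive thymocytes first proliferate behind the pre-TCR, then stop dividing and rearrange the TCRα locus. Cells whose finished T cell receptor (TCR) binds self-peptide on MHC receive a signal that raises CD5 and CD69 and induces the transcription factors of the Egr and Nr4a families. They then start towards the CD4 or CD8 fate, while survival passes from Bcl-xL to Bcl2 and the interleukin 7 receptor. Hdac3 removes acetyl groups from histones as part of the NCoR and SMRT corepressors.

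Within the Hdac3KO cells 182 genes were higher in DP2 than in DP1 and 476 were lower, which is 1.78% and 4.65% of the 10231 tested genes. So 72.3% of the 658 called genes (6.43% of those tested) fell. The falls were also the larger ones. Their median size was 1.32 on the log2 scale against 1.07 for the rises, and 88 falls but 21 rises were at least 4-fold. The deposited p was at its smallest value for 274 of the lower and 65 of the higher genes. The largest q among the called genes was 0.0498 and the smallest above the threshold was 0.0504. The median gene with at least 10 FPKM in both groups moved by -0.01 (5829 genes), so changes are given as deposited.

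**Figure D1:**
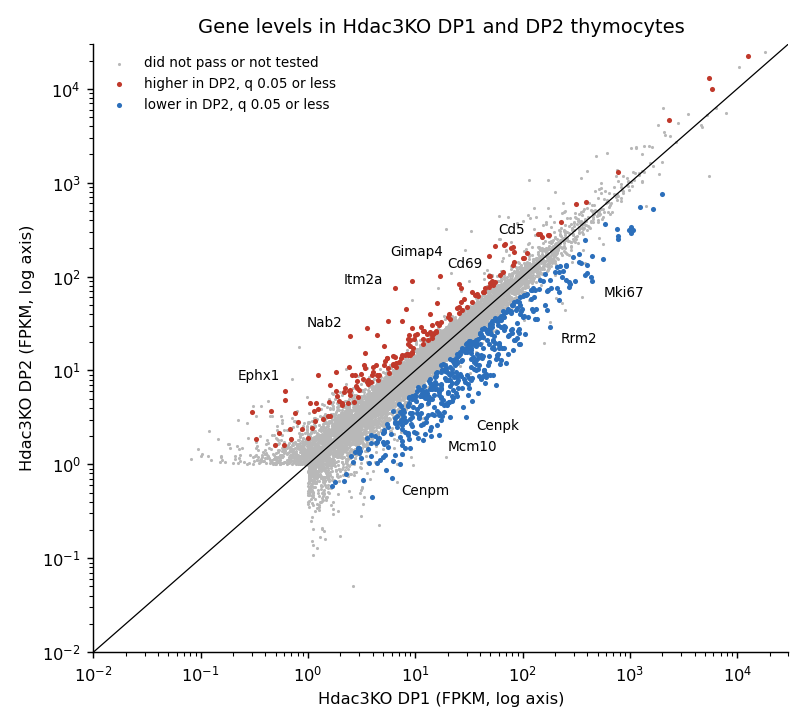
Level of each gene in Hdac3KO DP1 (x) and DP2 (y), in FPKM on log axes, with genes called higher in red, called lower in blue and all others in grey; the line marks equal levels, and 162 genes with a value of 0 are not drawn. The 476 lower genes form a band below the line, and Itm2a, Gimap4 and Cd69 lie far above it.

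Genes that TCR signals induce were prominent among the rises. Of the called genes that reached 5 FPKM, the 12 largest rises were those of Itm2a, Ephx1, Gimap4, Nab2, Nr4a1, Gimap3, Cd69, Ccr4, Egr1, Mapk11, Svip and Ndrg1, of which Itm2a, Nab2, Nr4a1, Cd69 and Egr1 are known to be induced by the TCR. Of a list of 36 TCR-induced genes, 28 reached 1 FPKM and 25 were tested. Among those, 15 rose (60%, against 1.78% of all tested genes), none fell and 10 did not pass. Of the 28, 27 had a log2 change above 0. The median of the list was 1.02, against 0.01 for all 11688 genes. The list was compiled with earlier results of these data known, so its direction is not independent evidence.

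The immediate early transcription factors were among the most changed. Nr4a1, the orphan nuclear receptor Nur77 and a standard readout of TCR signal strength, went from 3.56 to 28.4 FPKM, a log2 change of 2.99 ± 0.74 (deposited q = 0.00151). Egr1 went from 4.39 to 23.8 FPKM (2.44 ± 0.60) and Egr2 from 0.611 to 4.86 (2.99 ± 0.74), both with that same deposited q. Their corepressor Nab2 went from 2.47 to 23.2 FPKM, a log2 change of 3.23 ± 0.95 (deposited q = 0.0147). Id3, an inhibitor of E proteins that acts downstream of Egr factors, rose from 9.0 to 18.1 FPKM (1.0 ± 0.32, deposited q = 0.0318). All 5 of these genes were thus higher in DP2 than in DP1 without Hdac3. The immediate early genes Junb (14.4 to 23.9 FPKM, 0.73 ± 0.23) and Ier2 (6.53 to 14, 1.1 ± 0.31) also rose. They stand outside the lists and were chosen after their values were seen, and the Junb call was lost once the trend of the changes with transcript length was removed (recomputed q = 0.0514). Nr4a3 was 0.368 FPKM in DP1 and 4.22 in DP2 and did not pass (deposited q = 0.0885). Pdcd1, the gene of the inhibitory receptor PD-1, was at 0.528 and 1.19 FPKM and had not been tested.

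The Nr4a1 promoter is shown because this gene is the best known direct readout of the signal. It was taken from RefSeq (GRCm38.p6), from 250 bases before the transcript's start to 50 after it, 5′ to 3′ along the gene. Capitals mark TGCGTCA on either strand, a variant of the cyclic AMP response element. The window holds 4 copies, and 2.19% of all 27025 RefSeq promoter windows of this length hold at least 1 copy. Of the 394 windows matched for the 476 lower genes, 4.06% hold at least 1 copy, and that of Ccnb2, which fell, is among those with a copy. The share for the higher genes was void, as 73.6% of them matched, under the 80% required. Whether the motif goes with the rises was not tested. A match is a description of letters and not a bound site.
Nr4a1 (chr15:101266596-101266895, plus strand): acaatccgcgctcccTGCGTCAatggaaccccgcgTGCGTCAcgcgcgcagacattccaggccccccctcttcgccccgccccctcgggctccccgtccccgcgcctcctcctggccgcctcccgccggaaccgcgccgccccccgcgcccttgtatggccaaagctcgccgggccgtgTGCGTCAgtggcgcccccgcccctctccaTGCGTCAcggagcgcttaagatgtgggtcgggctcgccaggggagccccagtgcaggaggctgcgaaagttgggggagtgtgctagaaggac

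Other TCR-induced genes encode surface proteins and factors of survival and lineage. Itm2a (mm10 chromosome X, 107397099 to 107403376, minus strand), which encodes a small membrane protein induced during positive selection, had the largest rise among called genes of at least 5 FPKM, from 6.4 to 76.4 FPKM, or 11.9-fold (3.58 ± 0.88, deposited q = 0.00151). Cd69, the early activation marker that holds cells in the thymus, went from 17.1 to 103 FPKM (2.58 ± 0.64, deposited q = 0.00151). Cd5 went from 54.8 to 210.0 FPKM (1.94 ± 0.48), and as surface CD5 parted the populations, its rise is a check of the sort and not a finding. Cd53, a tetraspanin, went from 25.7 to 84.2 FPKM (1.71 ± 0.42) and Cd6, a relative of CD5, from 49.3 to 102 (1.05 ± 0.26). The pro-apoptotic Bcl2l11 (Bim) rose from 16 to 31.8 FPKM (1.0 ± 0.25, deposited q = 0.00151). Tox, a factor needed for the CD4 lineage, rose from 16.8 to 30.7 FPKM (0.87 ± 0.23). The costimulatory receptor gene Icos went from 3.65 to 8.01 FPKM (1.13 ± 0.37, deposited q = 0.0356). Cd28 (67 to 98.2 FPKM, deposited q = 0.0952), Dusp2 (19.6 to 28.2, q = 0.196) and Gata3 (22.2 to 28.1, q = 0.479) were the most abundant members that did not pass.

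**Figure D2:**
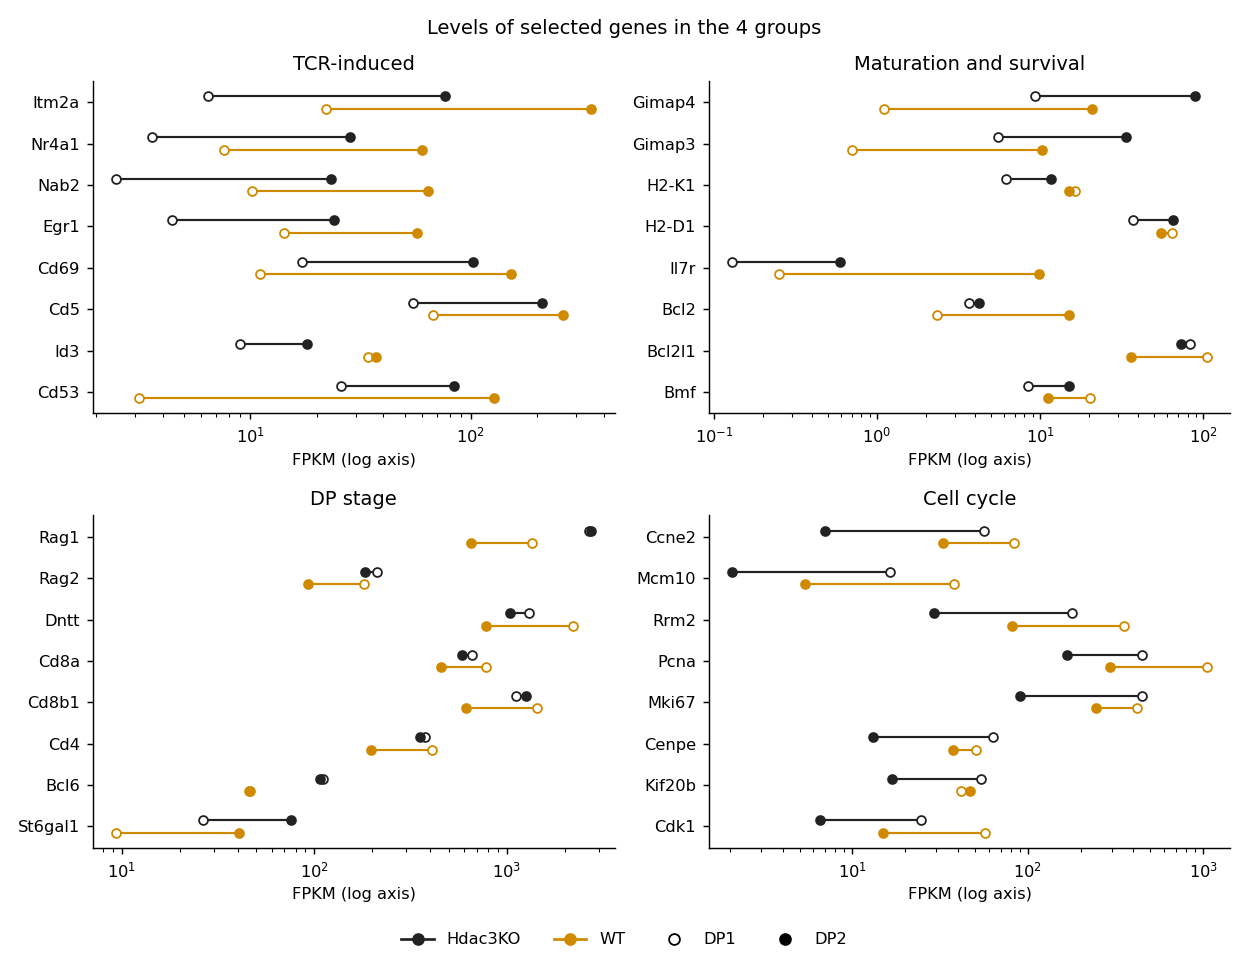
Level of selected genes in FPKM (log axes) in DP1 (open) and DP2 (filled) cells, for Hdac3KO (black) and WT (ochre), with 1 deposited value per group; lines join the stages of a genotype. In Hdac3KO the TCR-induced genes move right and the cell cycle genes move left, while Rag1, Bcl6 and Cd4 stay within a short span.

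The Gimap genes, small GTPases of lymphocyte survival whose expression climbs as thymocytes mature, rose together. The 8 members lie within 124 kb of mm10 chromosome 6, between 48647234 and 48770851. Of these, 6 rose (75%, against 1.78% of all tested genes) and none fell. All 8 had a log2 change above 0, with a median of 0.91. The largest changes were those of Gimap4, from 9.36 to 88.8 FPKM (3.25 ± 0.80, deposited q = 0.00151), and Gimap3, from 5.52 to 33.8 (2.62 ± 0.64, with that same q). Gimap7 rose from 81.7 to 208 FPKM (1.35 ± 0.33), Gimap6 from 316 to 599 (0.92 ± 0.23), Gimap5 from 9.42 to 17.5 (0.89 ± 0.27) and Gimap8 from 111 to 178 (0.68 ± 0.20). The other members were Gimap9 at 241 to 316 FPKM (deposited q = 0.341) and Gimap1 at 72 to 89.4 (deposited q = 0.508). The order of the changes was therefore not that of the levels, and Gimap4, low in DP1, changed most. This family was set apart after its values were seen.

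A wider list of 32 maturation genes, with a median of 0.61, had 24 tested members. Of these 10 rose (41.7%, against 1.78% of all tested genes) and none fell. The list holds all 6 called Gimap genes. The other 4 were Il4ra, the integrin gene Itgb7 and the class I MHC genes H2-D1 (37.3 to 65.5 FPKM, 0.81 ± 0.20, deposited q = 0.00151) and H2-K1 (6.16 to 11.7 FPKM, 0.92 ± 0.31, deposited q = 0.0449). Among all 18 tested H2 genes, H2-Q2 (33.4 to 69 FPKM, 1.05 ± 0.26) and H2-Q4 (21 to 35.2, 0.75 ± 0.22) rose as well and none fell. With these, 22.2% of the 18 rose, against 1.78% of all tested genes. H2 genes are near-identical copies, so how the authors' counting split their reads is uncertain, and the H2-K1 call was lost with the length trend removed (recomputed q = 0.0612). B2m, the light chain shared by these molecules, was at 246 to 280.0 FPKM and did not pass (deposited q = 0.793). Ccr7, the receptor that guides selected cells to the medulla, was at 5.03 to 9.53 FPKM (deposited q = 0.0675). Genes of late maturation stayed low in both groups, with Il7r at 0.13 to 0.595 FPKM, S1pr1 at 0.0622 to 0.133 and Klf2 at 0.503 to 0.466, and these 3 had not been tested.

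The most abundant genes of the double-positive stage did not pass, while 5 less abundant members did. Of the 27 members of this list, 1 rose, 4 fell and 22 did not pass, so 18.5% were called against 6.43% of all tested genes, with a median of -0.17. The recombinase gene Rag1 was at 2660.1 to 2732 FPKM (0.04 ± 0.35, deposited q = 0.982) and Rag2 at 211 to 182 (-0.21 ± 0.21, deposited q = 0.744). Dntt, which adds bases at V(D)J joints, was at 1306 to 1040.1 FPKM (-0.33 ± 0.23, deposited q = 0.54). The transcription factor gene Bcl6 (111 to 107 FPKM, deposited q = 0.965) did not pass either. The 4 falls were those of the cystine transporter gene Slc7a11 (7.67 to 3.06 FPKM, -1.32 ± 0.33), Ptcra (26.1 to 14.9, -0.82 ± 0.26), Tdrd5 (25 to 14.4, -0.80 ± 0.23) and Rorb (18.2 to 11.6, -0.65 ± 0.22). The Rorb call was lost with the length trend removed (recomputed q = 0.139). St6gal1, a sialyltransferase, rose from 26.4 to 75.6 FPKM (1.52 ± 0.37, deposited q = 0.00151), the sole call among 11 tested glycosyltransferase genes.

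The coreceptor genes did not pass. Cd4 was at 377 to 356 FPKM (deposited q = 0.93), Cd8a at 657 to 582 (deposited q = 0.815) and Cd8b1 at 1119 to 1255 (deposited q = 0.828). In the CD4 lineage list 3 of 10 tested genes rose and 1 fell, or 40% against 6.43% of all tested genes, with a median of -0.03. The risers were Tox, Il4ra (52.5 to 82 FPKM, 0.64 ± 0.21) and Ccr4, a chemokine receptor of newly selected thymocytes (8.11 to 44.7 FPKM, 2.46 ± 0.61). Runx1 fell from 40.3 to 24.7 FPKM (-0.71 ± 0.21, deposited q = 0.0139). Zbtb7b, the CD4 fate factor ThPOK, was below the minimum at 0.285 to 0.343 FPKM. Of the CD8 lineage list, 1 of 5 tested genes (20%) was called, Gzma, which fell from 37.3 to 14.8 FPKM (-1.33 ± 0.39), and Runx3 was at 2.27 to 2.33 (deposited q = 0.982).

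The machinery that carries the TCR signal was called about as often as all tested genes (6.43%). Of 34 tested genes of the receptor and its signalling proteins, 2 rose and none fell, or 5.88%, with a median of 0.19. These were the phosphatase gene Ptpn6 (SHP-1, 61.4 to 104 FPKM, 0.76 ± 0.21) and the kinase gene Prkcq (103 to 159, 0.63 ± 0.21). Themis (870.4 to 807 FPKM), Cd3g (583 to 821) and Ptprc (613 to 646) were the most abundant members that did not pass. The pre-TCR and Notch list went the other way, with 4 falls and 1 rise among 8 tested genes, or 62.5% called. Besides Ptcra, which encodes the pre-TCR α chain, Dtx1 fell from 2.97 to 1.5 FPKM (-0.99 ± 0.33), Notch1 from 27.5 to 17.3 (-0.67 ± 0.21) and Notch3 from 6.2 to 3.69 (-0.75 ± 0.23). The Notch1 and Notch3 calls were lost with the length trend removed (recomputed q = 0.0935 and 0.0626). Hhex, a homeobox gene of early progenitors, rose from 8.51 to 19.2 FPKM (1.17 ± 0.29, deposited q = 0.00151).

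Proliferation genes led the falls. The 12 largest by the rule for named genes were those of Cenpk, Cenpm, Ccne2, Mcm10, Fads2, E2f8, Kntc1, Neil3, Ckap2l, Rad54b, Dtl and Mybl1. All but Fads2, a fatty acid desaturase gene, and Mybl1, the gene of the transcription factor A-Myb, are known from DNA replication, DNA repair, mitosis or their control. Cenpk, a kinetochore gene, had the largest of these falls, from 29.6 to 3.19 FPKM (-3.22 ± 0.83, deposited q = 0.00285). Of the 476 lower genes, 89 belong to the lists of DNA replication, mitosis and replication-dependent histones. The share of falls over all tested genes was 4.65%. These lists held 30 falls among 41 tested genes, 32 among 35 and 27 among 30, with no rise in any. Their medians were -1.48, -1.94 and -1.61. Their summed levels went from 2053 to 778 FPKM, from 2549 to 668 and from 9351 to 3312.

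In DNA replication, Ccne2 (cyclin E2), which starts S phase, fell from 56 to 6.95 FPKM, or 8.06-fold (-3.01 ± 0.74, deposited q = 0.00151). Mcm10, which helps to fire replication origins, went from 16.4 to 2.07 FPKM (-2.99 ± 0.74) and the origin licensing gene Cdc6 from 15.9 to 2.65 (-2.58 ± 0.64). Rrm2, the regulated subunit of the reductase that makes deoxynucleotides, was more abundant and fell from 179 to 29.1 FPKM (-2.62 ± 0.65). The replication clamp gene Pcna fell from 445 to 166 FPKM (-1.42 ± 0.35). Among the members that did not pass, Rpa1 was at 57.4 to 55.2 FPKM (-0.05 ± 0.21, deposited q = 0.958) and Rfc1 at 53 to 37.4 (-0.50 ± 0.21, deposited q = 0.17).

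In mitosis, Mki67, the proliferation marker Ki-67, fell from 447 to 89.7 FPKM (-2.32 ± 0.57, deposited q = 0.00151). The kinetochore motor gene Cenpe went from 63.5 to 13.1 FPKM (-2.28 ± 0.56) and the spindle gene Nusap1 from 92.4 to 19.2 (-2.27 ± 0.56). Foxm1, the transcription factor of mitotic genes, was low and fell from 19.6 to 4.5 FPKM (-2.13 ± 0.52). The kinase gene Cdk1 fell from 24.7 to 6.56 FPKM (-1.92 ± 0.47) and its cyclin Ccnb2 from 56 to 13.2 (-2.08 ± 0.51). The 3 members that did not pass were also lower, with Kif20a at 28.3 to 8.08 FPKM (deposited q = 0.0504), Cdc25b at 17.3 to 10.4 (q = 0.522) and Cdc25c at 5.85 to 2.28 (q = 0.0773). Of the histone genes Hist1h4b fell from 219 to 56.1 FPKM (-1.96 ± 0.48) and Hist1h3g from 49.7 to 8.93 (-2.48 ± 0.61). Histone genes are near-identical copies, so their counts are uncertain one by one.

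The promoters of 3 of these genes are shown because the falls went together across replication and mitosis. Capitals mark, on either strand, CCAAT and TTTGAA (Cdk1 and Ccnb2) or CCAAT and the E2F motif TTTGGCG (Mcm10). CCAAT boxes and the TTTGAA cell cycle element are known from mitotic promoters and TTTGGCG from those of S phase. The windows run from 250 bases before to 50 after the start (RefSeq, GRCm38.p6), 5′ to 3′ along each gene.
Cdk1 (chr10:69352863-69353162, minus strand): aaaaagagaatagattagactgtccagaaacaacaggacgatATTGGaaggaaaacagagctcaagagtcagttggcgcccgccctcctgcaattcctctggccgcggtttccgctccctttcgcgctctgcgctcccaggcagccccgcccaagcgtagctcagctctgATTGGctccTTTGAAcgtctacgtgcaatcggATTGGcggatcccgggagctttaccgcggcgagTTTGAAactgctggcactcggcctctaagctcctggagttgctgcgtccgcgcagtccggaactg
Ccnb2 (chr9:70421505-70421804, minus strand): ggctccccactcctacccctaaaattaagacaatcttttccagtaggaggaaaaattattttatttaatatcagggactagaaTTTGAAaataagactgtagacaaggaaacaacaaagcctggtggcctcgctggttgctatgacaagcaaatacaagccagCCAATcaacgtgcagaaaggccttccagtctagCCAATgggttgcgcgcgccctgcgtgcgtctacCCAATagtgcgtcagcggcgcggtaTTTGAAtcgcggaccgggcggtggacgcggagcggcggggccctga
Mcm10 (chr2:5012742-5013041, minus strand): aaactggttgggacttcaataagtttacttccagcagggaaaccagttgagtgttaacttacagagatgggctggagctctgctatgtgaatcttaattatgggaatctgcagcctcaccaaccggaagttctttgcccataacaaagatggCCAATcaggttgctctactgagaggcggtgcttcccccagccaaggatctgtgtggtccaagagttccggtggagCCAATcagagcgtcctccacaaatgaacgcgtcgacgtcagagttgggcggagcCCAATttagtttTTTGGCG
The Cdk1 and Ccnb2 windows each hold 3 copies of CCAAT and 2 of TTTGAA, and that of Mcm10 holds 3 of CCAAT and 1 of TTTGGCG. RefSeq windows were matched for 394 (82.8%) of the 476 lower genes. CCAAT was in 58.6% of them against 38.0% of all 27025 RefSeq windows, TTTGAA in 29.9% against 18.2%, and TTTGGCG in 8.88% against 1.59%. A second E2F motif, TTTCCCG, was in 14.2% against 3.5%. The windows of all genes include genes silent in thymocytes, no test was made, and the motifs were chosen after the data were seen. The same shares were void for the higher genes, as 73.6% of them matched, under the 80% required.

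No gene of the ribosomal protein and oxidative phosphorylation lists was called in the Hdac3KO cells. By the deposited Cuffdiff q none of 48 ribosomal protein genes and none of 40 genes of oxidative phosphorylation passed, with medians of -0.06 and 0.02. At an unadjusted deposited p under 0.05, 1 of the 48 was higher and 1 lower, and of the 40 none was higher and 1 lower. Their summed levels were 22153 and 21932 FPKM for the first list and 3365 and 3320.0 for the second, in DP1 and DP2. Rplp1, of the ribosomal stalk, was at 1621 to 2421 FPKM (0.58 ± 0.22, deposited q = 0.0927), and Atp5h, of the ATP synthase, at 341 to 379 (0.15 ± 0.21, deposited q = 0.835). Of 30 ribosome biogenesis genes 1 was called, Cad of pyrimidine synthesis, which fell from 3.82 to 2.06 FPKM (-0.89 ± 0.27). In glycolysis 3 of 18 tested genes rose and 1 fell, or 22.2% called against 6.43% of all tested genes. Aldoa (44.6 to 75.9 FPKM, 0.77 ± 0.20), Pdk1 (38.2 to 62.6, 0.71 ± 0.22) and the glucose transporter gene Slc2a3 (4.49 to 8.0, 0.83 ± 0.28) rose, and Tpi1 fell (10.1 to 4.78, -1.08 ± 0.36).

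In lipid synthesis, the called genes were mostly lower in DP2. Of 26 tested genes of cholesterol and fatty acid synthesis, 4 fell and 1 rose, or 19.2% against 6.43% of all tested genes, with a median of -0.25. Acaca, which makes malonyl-CoA, fell from 7.53 to 2.65 FPKM (-1.51 ± 0.37). Idi1 (18.9 to 8.26 FPKM, -1.19 ± 0.29) and Cyp51 (6.79 to 3.29, -1.04 ± 0.31) of sterol synthesis also fell, while Pmvk of the same pathway rose from 26.8 to 53.4 FPKM (0.99 ± 0.24). By Cuffdiff none of 9 tested liver X receptor genes and their targets was called (1 higher at an unadjusted p under 0.05), among them Abcg1 at 56.8 to 66.8 FPKM (deposited q = 0.687).

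Of 24 tested genes of death and survival, 3 rose and 1 fell, or 16.7% against 6.43% of all tested genes. The BH3-only death genes Bcl2l11 and Bmf rose, Bmf from 8.39 to 15 FPKM (0.84 ± 0.23, deposited q = 0.00747), as did the inhibitor of apoptosis gene Birc3 (15.5 to 25.6 FPKM, 0.72 ± 0.23). Xiap, another inhibitor of apoptosis, went from 30.03 to 19.5 FPKM (-0.62 ± 0.21, deposited q = 0.0486), a call lost with the length trend removed (recomputed q = 0.114) and relative to the median gene (0.0518). Bcl2, the survival gene of mature T cells, was at 3.67 to 4.22 FPKM (0.20 ± 0.32, deposited q = 0.865). Bcl2l1, which encodes the Bcl-xL of double-positive cells, was at 83 to 73.3 FPKM (-0.18 ± 0.20, deposited q = 0.788), and Mcl1 at 157 to 140.2 (deposited q = 0.817). Of 14 tested p53 targets, Perp rose (8.83 to 20.9 FPKM, 1.24 ± 0.31) and none fell, or 7.14%, near the share of all tested genes.

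The NF-κB and interleukin receptor lists had rises and no falls. Of 19 tested NF-κB genes 4 rose, or 21.1% against 6.43% of all tested genes called, with a median of 0.45. Relb, a subunit of the alternative pathway, went from 0.30 to 3.62 FPKM (3.59 ± 1.08, deposited q = 0.0173), Tnf from 4.32 to 11.3 (1.39 ± 0.37) and Ltb, which encodes lymphotoxin β, from 36.6 to 64 (0.81 ± 0.22). The inhibitor genes Nfkbia (88.6 to 121 FPKM) and Tnfaip3 (54.2 to 58.1) did not pass (deposited q = 0.50 and 0.906). Of 24 tested genes of interleukin receptors and JAK kinases 4 rose, or 16.7%. These were Il2rg, the common γ chain (175 to 280.2 FPKM, 0.68 ± 0.21), Il4ra, Il18r1 (5.13 to 11.4, 1.15 ± 0.31) and Tyk2 (5.72 to 9.32, 0.70 ± 0.24). Among 20 tested interferon-related genes Irf1 (25.3 to 41.4 FPKM, 0.71 ± 0.22) and Gbp2 (12.8 to 24.6, 0.94 ± 0.26) rose and Ifit2 fell (20.9 to 10.9, -0.94 ± 0.27). In the homing list of 15, Ccr4 and Itgb7 (6.56 to 12.1 FPKM, 0.89 ± 0.26) rose and the integrin gene Itga4 fell (43.9 to 28.6, -0.62 ± 0.20, lost with the length trend removed at a recomputed q of 0.132). Ccr9 (309 to 478 FPKM, deposited q = 0.0548) and Itgb2 (114 to 175, deposited q = 0.0504) were just outside the threshold. Of the tested genes, 15% of the interferon list and 20% of the homing list were called.

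Of the factors that set T cell identity, the most abundant did not pass. Satb1 was at 845 to 845 FPKM, Tcf7 at 1043 to 925 and Ets1 at 373 to 383. Of 24 tested E protein, Id and Ikaros genes, Id3 and Ikzf2 (Helios, 8.47 to 21.8 FPKM, 1.37 ± 0.34) rose and Runx1 fell. That is 12.5% called, against 6.43% of all tested genes. Hdac3 itself was at 11.7 to 14 FPKM in DP1 and DP2 (0.26 ± 0.26, deposited q = 0.745), where WT cells had 43.2 to 28.5. These values sum over the whole gene, so a transcript missing just the floxed exons would still add to them. How much of the level comes from such transcripts was not tested. Of 32 tested histone deacetylase and corepressor genes 1 was called, or 3.1% against 6.43% of all tested genes. This was Mta1 of the NuRD complex, which fell from 30.1 to 17.2 FPKM (-0.81 ± 0.22).

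**Figure D3:**
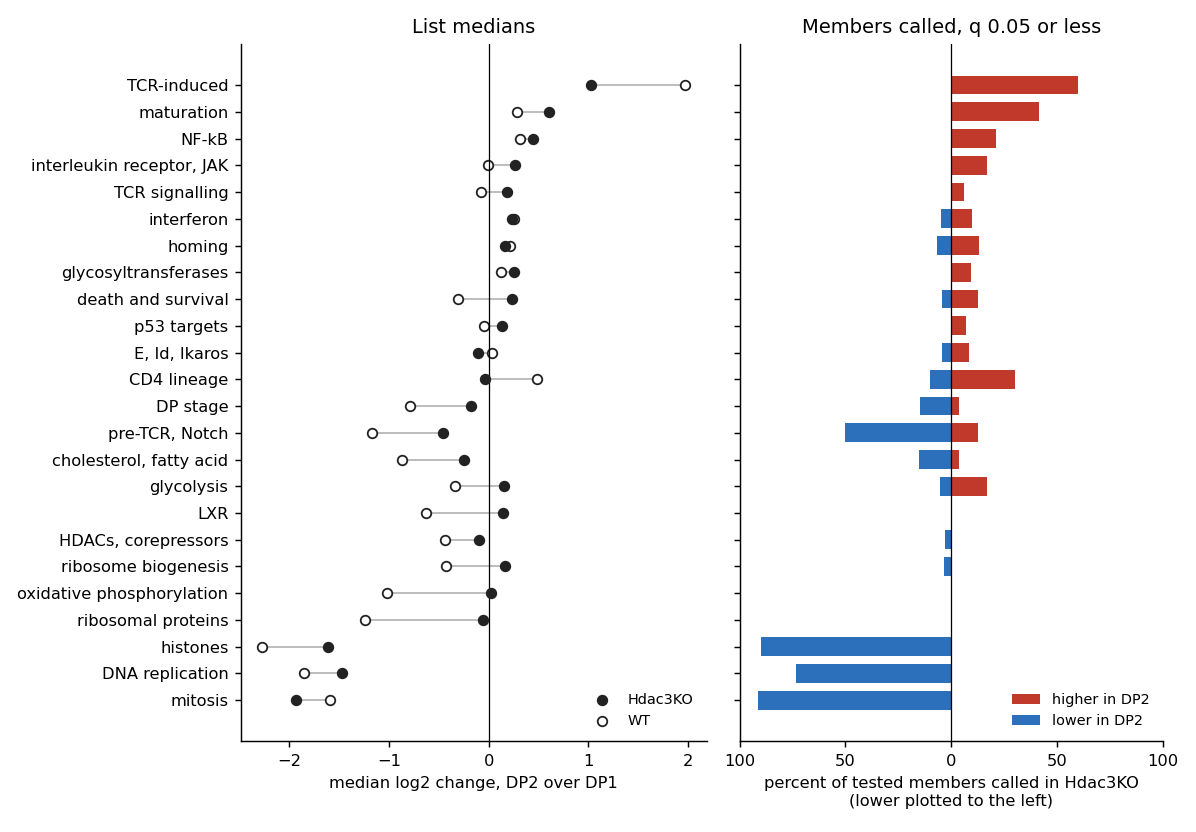
Median log2 change from DP1 to DP2 for 24 gene lists (left; filled for Hdac3KO, open for WT) and the percent of tested members called higher (red, right) or lower (blue, left) in Hdac3KO (right panel). The replication, mitosis and histone lists have medians of -1.48 or lower in both genotypes, while the ribosomal protein and oxidative phosphorylation lists sit at -0.06 and 0.02 in Hdac3KO and at -1.24 and -1.02 in WT.

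Markers of 5 other cell types were low in both Hdac3KO groups, and those of 2 more were higher. The summed level of 8 B cell markers was 9.50 FPKM in DP1 and 7.88 in DP2, that of 11 measured myeloid markers 12.5 and 20.5, that of 5 erythroid markers 3.10 and 2.09, and that of 8 thymic epithelial markers 13.6 and 15.5. None of the 7 measured γδ T and NK cell markers reached 1 FPKM, and no marker of these 5 lists was called. Myeloid Itgam was at 9.59 to 14.2 FPKM (deposited q = 0.137) and makes up most of its list's sum. The double-negative list summed to 31.0 FPKM in DP1 and 46.2 in DP2 and had 1 call, Hhex. In WT Hhex rose too, from 54.8 to 208 FPKM (deposited q = 0.000835). The regulatory T cell list summed to 41.5 and 59.9 FPKM in Hdac3KO and had 1 call, Ikzf2. In WT Ikzf2 also rose, from 19.6 to 92.3 FPKM with that same q. Il2ra, in both lists, was at 19.5 to 23.9 FPKM (deposited q = 0.601), where WT had 3.97 to 4.22. Of the regulatory T cell markers, Tnfrsf18 was at 10.6 to 12.2 FPKM (deposited q = 0.895) and the defining factor Foxp3 at 0.66 to 0.608. The part of such cells in the changes above was not tested.

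The Hdac3KO groups showed the pattern of female cells and the WT groups that of male cells. Xist was at 209 to 127 FPKM in Hdac3KO and 0.106 to 0.237 in WT. The Y-linked gene Ddx3y was at 0.191 to 0.629 and 64.5 to 154. Sex is therefore shared by both groups of the Hdac3KO stage comparison, but in any comparison with WT, sex and genotype cannot be told apart. Xist was called lower in DP2 (-0.72 ± 0.23, deposited q = 0.0337), and this call was lost with the length trend removed (recomputed q = 0.145).

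The same step in WT cells gives the scale for these changes. In WT 603 genes were higher in DP2 (5.56% of 10851 tested) and 1818 were lower (16.8%). Of the 10005 genes tested at both, 106 were called higher in both genotypes, which is 59.6% of the 178 called in Hdac3KO and 22.1% of the 480 called in WT. Likewise 355 were called lower in both, 74.9% of the 474 in Hdac3KO and 20% of the 1772 in WT. Where both genotypes were called, the median rise was 1.33 in Hdac3KO and 1.80 in WT, and the median fall -1.48 and -1.66. The 2 tables share no library. Across 9969 genes Pearson's r of the log2 changes was 0.44, given as a description, since genes are not independent replicates.

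Transcript length moved with the WT changes and hardly with those of Hdac3KO. From the fifth of genes with the shortest transcripts to the fifth with the longest, the median change was -0.72, -0.48, -0.33, -0.20 and 0.04 in WT. In Hdac3KO it was 0.04, 0.03, 0.01, -0.01 and -0.07. The median gene with at least 10 FPKM in both groups moved by -0.33 in WT (5848 genes). WT changes are therefore read relative to -0.33, and each stage difference that passed is given with the trend removed as well. What gave WT this trend was not tested.

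The difference of the stage changes, Hdac3KO minus WT, was tested with the SE of both tables, a two-sided normal p and Benjamini-Hochberg adjustment over 9969 genes. It was more positive in Hdac3KO for 206 genes (2.07%) and more negative for 106 (1.06%) at a q of the difference of 0.05 or less, 312 genes (3.13%) in all. This split depends on the scaling. Relative to each table's median gene it was 24 against 347, and with the trend on transcript length removed 12 against 106. Of the 118 genes called with the trend removed, 72 were among the 312 called as deposited, all with the same sign.

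**Figure D4:**
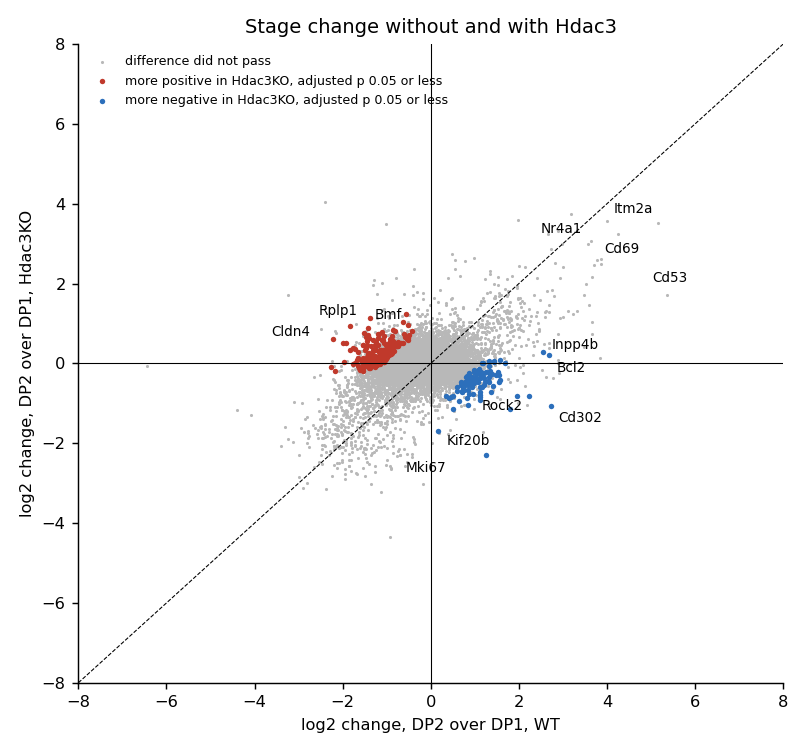
Log2 change from DP1 to DP2 in WT (x) and Hdac3KO (y) for 9969 genes, as deposited, with the 206 genes whose change was more positive in Hdac3KO in red and the 106 more negative in blue; the dashed line marks equal changes. The TCR-induced genes Itm2a and Nr4a1 lie near the dashed line at the upper right, Cd69 lies below it, and Bcl2 and Inpp4b lie near 0 on the Hdac3KO axis at the right.

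For the TCR-induced list the stage difference was called for none of 25 genes as deposited, relative to the median gene or with the length trend removed. At an unadjusted p under 0.05 as deposited 1 was more positive and 5 were more negative. By the genotype tables, which rest on the same libraries, 2 were more negative in Hdac3KO. Several members, such as Itm2a, Egr1 and Egr2, have p at its smallest value in both genotypes, so their SE are upper bounds. The test can miss differences there, and a lack of passing genes does not show equal changes. In WT 22 of 27 tested members rose and 1 fell, with a median of 1.97 (2.30 relative to the median gene) against 1.02 in Hdac3KO. Of all genes tested in WT 5.56% rose. Nr4a1 changed by 2.99 ± 0.74 in Hdac3KO and 2.98 ± 0.73 in WT, a difference of 0.01. Its p is at the smallest value in both tables, so its SE of 1.04 is only an upper bound and the error of this difference is not known. The authors' deposited table of Hdac3KO against WT in DP2 calls 687 genes higher (6.44%) and 461 lower (4.32%) of 10674 tested. It gave Nr4a1 63.1 in WT and 31.3 FPKM in Hdac3KO (deposited q = 0.00134), Itm2a 360.2 in WT and 84 (q = 0.00134) and Egr2 19.3 in WT and 5.36 (q = 0.00134). These 3 were lower in Hdac3KO, and Cd69, at 156 in WT and 113, did not pass (deposited q = 0.224).

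Cell cycle genes fell in both genotypes, while 4.65% of all tested genes fell in Hdac3KO and 16.8% in WT. In WT the replication, mitosis and histone lists had 37, 30 and 28 falls with medians of -1.86, -1.59 and -2.27 (-1.53, -1.26 and -1.94 relative to the median gene). The stage difference passed for none of their 106 genes as deposited or with the length trend removed, and for 2 mitotic genes relative to the median gene. In the genotype tables, 3 mitotic genes were more negative and 1 histone gene was more positive in Hdac3KO. At an unadjusted p under 0.05 as deposited, 5 replication and 3 histone genes were more positive and 4 mitotic genes more negative in Hdac3KO. Several of these genes, such as Mcm10, Rrm2 and Foxm1, have p at its smallest value in both genotypes, so their SE are upper bounds. The test can miss differences there, and a lack of passing genes does not show equal changes. The log2 change of Mki67 was -2.32 ± 0.57 in Hdac3KO and -0.78 ± 0.41 in WT, and the difference of -1.54 ± 0.70 did not pass as deposited (q of the difference = 0.174). By the genotype tables it was -1.60 and passed (q of the difference = 0.0367). Outside the lists, chosen after their values were seen, Kif20b, a mitotic kinesin gene, fell from 54.2 to 16.8 FPKM in Hdac3KO and was at 41.7 to 46.5 in WT. Its difference of -1.84 ± 0.51 passed as deposited (q of the difference = 0.0313) and with the trend removed (0.0362). The condensin gene Smc4 fell from 294 to 161 FPKM in Hdac3KO and was at 179 to 240.3 in WT, a difference of -1.30 ± 0.38 (q of the difference = 0.0393, and 0.0202 with the trend removed). Also chosen after their values were seen, the condensin gene Smc2 (-0.88 ± 0.46, q of the difference = 0.24) and Top2a (-0.78 ± 0.64, 0.484) did not pass as deposited.

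**Figure D5:**
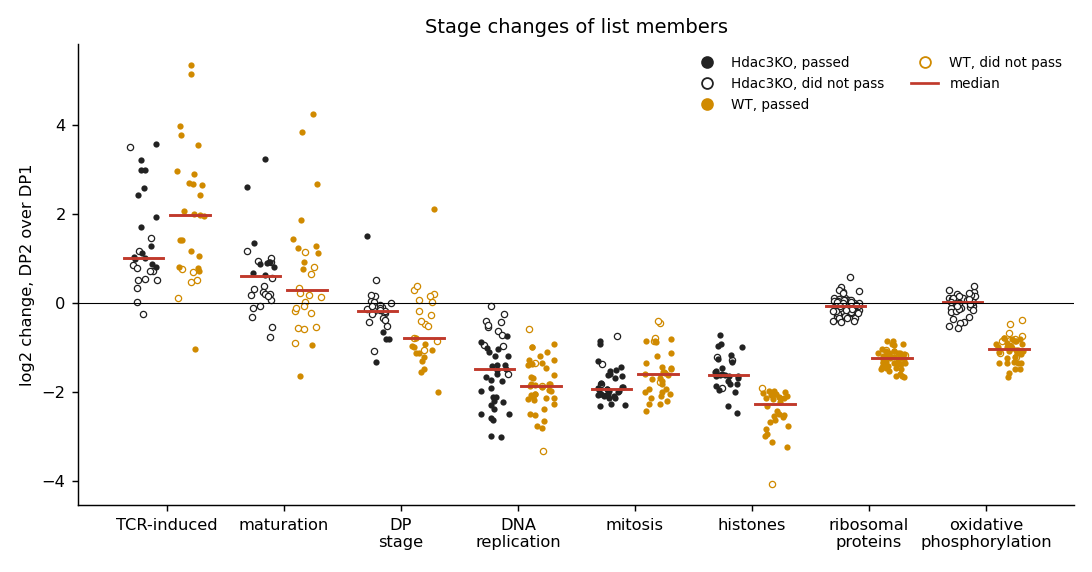
Log2 change from DP1 to DP2 of each member of 8 gene lists with at least 1 FPKM, for Hdac3KO (black) and WT (ochre); filled points passed the deposited q of 0.05, open points did not or were not tested, and red bars mark medians. In Hdac3KO all 48 ribosomal protein genes are open points around 0, and in WT 46 of them are filled points below 0.

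Ribosomal protein and oxidative phosphorylation genes differed widely between the genotypes as deposited. In WT 46 of 48 and 31 of 40 fell, against 16.8% of all tested genes. Their medians were -1.24 and -1.02 (-0.92 and -0.70 relative to the median gene). The stage difference passed for 21 and 7 of them, all more positive in Hdac3KO. Relative to the median gene this was 3 and 0, and with the length trend removed it was 0 and 0. The median transcript length was 1114 bases in the first list and 1321 in the second, against 3241 for all tested genes, so the length trend in WT moves with this gap.

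More double-positive genes were called lower in WT than in Hdac3KO, but this held for all tested genes too (16.8% against 4.65%). Few of the differences passed. In WT 12 of 26 tested genes of that list fell, with a median of -0.79 (-0.46 relative to the median gene). Rag1 was at 1353 to 648 FPKM (deposited q = 0.202), Rag2 at 181 to 93.2 (deposited q = 0.00918) and Dntt at 2195 to 783 (deposited q = 0.00499). The stage difference was called for Cd8b1 (1.38 ± 0.42, q of the difference = 0.044) and Bcl2l1 (1.37 ± 0.43, q of the difference = 0.0499). Neither passed relative to the median gene (0.141 and 0.165) or with the trend removed (0.521 and 0.362).

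Some single genes stood apart under more than 1 scaling. Bcl2 was at 2.34 to 15 FPKM in WT (2.68 ± 0.66, deposited q = 0.000835) where Hdac3KO had 3.67 to 4.22. Its difference was -2.49 ± 0.73 (q of the difference = 0.0399, 0.00996 relative to the median gene and 0.0772 with the trend removed). In DP2 the authors' deposited genotype table gave 15.8 in WT and 4.65 FPKM in Hdac3KO (q = 0.00134). Bmf was the sole gene called higher in Hdac3KO and lower in WT, where it went from 20.3 to 11.1 FPKM (-0.86 ± 0.29). Its difference of 1.70 ± 0.37 passed as deposited (q of the difference = 0.00672), relative to the median gene (0.0124) and with the trend removed (0.00701). All 8 genes called in opposite directions passed as deposited, so the opposite calls all but fix this pass and it adds no support. Bmf thus rose in Hdac3KO and fell in WT, while Bcl2 rose in WT and did not pass in Hdac3KO.

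Another 7 genes were called lower in Hdac3KO and higher in WT. They are named because they are few and were chosen after their values were seen. Rock2, a kinase gene, went from 21.9 to 12.9 FPKM in Hdac3KO and 10.2 to 19.7 in WT, a difference of -1.71 ± 0.37. Maoa, monoamine oxidase A, went from 36.4 to 21.3 and 19.98 to 36.3 (difference -1.63 ± 0.39). The other 5 were A630089N07Rik, Kcnq1ot1, Nfat5, Ppp2r3a and Zbtb1. Kcnq1ot1 is antisense to Kcnq1, and whether the authors' counting used strand is not given in the sources used here. As these genes were picked for opposite calls, a test of their differences would add nothing and none is given. With the length trend removed the Hdac3KO calls of Nfat5 (recomputed q = 0.174), Ppp2r3a (0.0665) and Zbtb1 (0.125) were lost.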

How the data were processed

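RNA of sorted thymocytes was sequenced in 8 libraries. Per the submitters' processing notes, the tools were Trimmomatic 0.32, TopHat2 2.0.11 and Cuffdiff 2.1.1, on mm10. Settings and gene annotation are not given in the sources used here. The FPKM that the authors deposited come as a single value for each gene in each group, normalized within each of 4 tables of 2 groups. The deposited test statistic is a score from Cuffdiff, and the deposited p-value and q-value come with it. Spreadsheet software spoiled the deposited log2 column, so log2 changes were computed from the FPKM without a pseudocount. It also turned 25 symbols into dates, and 85 entries join several genes.

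SE are the size of the log2 change over the normal quantile of the deposited p. Transcript length is that of GENCODE M21, found for 98.4% of the genes with at least 1 FPKM, and trends were removed by lowess (fraction 0.3) over genes of 10 FPKM or more in each group. The test of the stage difference was tested on simulated data: among 9969 genes, it called 8% of 50 genes made to differ by 1 log2 unit, 52% of 50 at 2, 54% of 50 at 3 and 76% of 50 at 4, and 0.0717% of unchanged genes were called. The simulated noise had the SE that the test assumes, and unchanged genes had the same true change in both genotypes. These shares thus do not cover the median shift and length trend of the real WT changes. With no values per library, no interval or leave-one-out fit was possible, and precision rests on the deposited p.

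Lists (34, with 707 symbols, 697 of them in the table) and members were chosen with earlier results of these data known. Named genes are the 12 largest called changes per direction that reach 5 FPKM and hold no 0 (joined, date, small RNA and unnamed entries left out), up to 4 called members per direction and the 3 most abundant that did not pass in each list, and the 8 largest stage differences per direction. Others were chosen after their values were seen: Gimap1, Gimap5, Gimap8, Gimap9, Cd5, Cd6, Cd53, Icos, Id3, Tox, the H2 genes, Ccr7, Il7r, S1pr1, Klf2, Rag2, Bcl6, Zbtb7b, Runx3, Nr4a3, Pdcd1, Pcna, Cdk1, Ccnb2, Bcl2l1, Ddx3y and Foxp3, beside those said to be so in the text. Alternatives were other q, FPKM and log2 minimums, centring, removal of the length trend, a pseudocount of 1 FPKM, other SE and the genotype tables. Python 3.11.15, pandas 2.3.3, scipy 1.17.1 and statsmodels 0.14.6 were used.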

Additional observations from a re-analysis of the deposited data

Results flagged for a closer look

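For 24 of the named genes, the change from DP1 to DP2 differed between Hdac3KO and WT by the test of the difference as deposited. Relative to each table's median gene 14 of them passed, with the length trend removed 8, and 18 passed by the genotype tables. Sex and genotype cannot be told apart in any of the 24. The 8 largest differences in each direction were named because they passed this test, so most of the count was fixed by the choice of genes. Over all 9969 genes, 312 (3.13%) passed as deposited.

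The 8 that passed as deposited, relative to the median gene and with the length trend removed were these, with the difference of the log2 changes (Hdac3KO minus WT). Bmf had 1.70 ± 0.37, a pass that its opposite calls all but fixed. Cldn4, a claudin gene, had 2.83 ± 0.60, from 11.5 to 17.4 FPKM in Hdac3KO and 11.6 to 2.47 in WT. The differences were negative for Cd302 (-3.79 ± 0.97), Lipi (-3.54 ± 1.1), Spata1 (-2.93 ± 0.91), Zfp930 (-2.09 ± 0.63), Zfp182 (-2.02 ± 0.47) and Cd209c (-1.99 ± 0.48). Neither Cldn4 nor any of these genes had a called change in Hdac3KO (deposited q from 0.0897 for Lipi to 0.327 for Zfp930). In WT, Lipi (deposited q = 0.189) and Spata1 (0.055) did not pass either. Cd302, a C-type lectin gene, was at 7.61 to 3.66 FPKM in Hdac3KO and 0.675 to 4.5 in WT, and the zinc finger gene Zfp182 at 23.8 to 17.2 and 10.02 to 29.3.

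For 2 more genes, Bcl2 (-2.49 ± 0.73) and the phosphoinositide phosphatase gene Inpp4b (-2.27 ± 0.66), the difference passed relative to the median gene and not with the trend removed. Inpp4b was at 39.4 to 47.7 FPKM in Hdac3KO, which did not pass (deposited q = 0.614), and 6.84 to 39.9 in WT.

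The remaining 14 were all more positive in Hdac3KO and none passed with the trend removed. Of these, Rplp1 (1.89 ± 0.39), Timm13 (2.27 ± 0.57), Ift27 (2.44 ± 0.62) and Agxt (2.76 ± 0.71) passed relative to the median gene. The others were Irf1 (1.21 ± 0.36), Ltb (1.23 ± 0.36), Atp5h (1.29 ± 0.35), Cox6c (1.33 ± 0.37), Cd8b1 (1.38 ± 0.42), Zfp771 (2.05 ± 0.63), Mvk (2.07 ± 0.59), Bad (2.15 ± 0.59), Bst2 (2.18 ± 0.69) and Epcam (2.53 ± 0.73).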

How the results depend on the processing

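The count of genes lower in Hdac3KO DP2, 476, stayed within 1.5 times under every alternative run (328 with a log2 change of at least 1, 340 at a q of 0.01, 572 at a q of 0.10). The count of higher genes, 182, was 94 at a q of 0.01 and 103 with a log2 change of at least 1, by the construction of those thresholds. For the stage difference, the 206 more positive genes became 0 with SE multiplied by 1.5, 91 by the genotype tables, 24 relative to the median gene, 12 once the length trend was removed and 555 at an adjusted p of 0.10. The 106 more negative genes became 277 with SE from the deposited statistic, 0 with SE multiplied by 1.5, 347 relative to the median gene and 217 at an adjusted p of 0.10. With SE multiplied by 1.5 the normal test gave 329 and 144 at an unadjusted p under 0.05. The cause was not tested where no threshold or SE was changed. No named gene's call reversed. Removing the length trend ended the calls of Rorb, Notch3, Notch1, Xiap, Itga4 and Xist among genes named by the rule and gave calls to Kif20a and Ccr9. Centring ended the call of Xiap and gave one to Itgb2. No paired analysis was possible because the tables give 1 value per group and no value per library, and leaving out a replicate was not run for the same reason. Depth is unknown, so what it limits cannot be said.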

Other observations

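Of 129 genes of small nuclear, small nucleolar and related RNAs, 99 reached 1 FPKM and 90 were tested. In that family, set apart after its values were seen, 5 rose and none fell, with a median of 0.80 in Hdac3KO and -0.40 in WT. The 5 calls are 5.56% of its tested genes. Of all tested genes 6.43% were called in either direction and 1.78% were called higher. Rmrp, the RNA of the mitochondrial RNA processing ribonuclease, went from 12641 to 22285 FPKM (0.82 ± 0.24, deposited q = 0.0122) and Snord22 from 5459.9 to 12946 (1.25 ± 0.31, deposited q = 0.00151). Snord17, Rnu12 and Rprl3 were the other 3 that rose. With the trend on transcript length removed none of the 5 calls was kept (recomputed q from 0.187 for Snord22 to 0.663 for Rnu12).

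Zinc finger genes of the Zfp series, also set apart after their values were seen, had 5 rises and 2 falls in Hdac3KO among 250 tested genes, with a median of 0.02. That is 2.8% called, against 6.43% of all tested genes. In WT 31 of 273 tested members rose and 12 fell. The stage difference passed for 1 of 250 towards a more positive and for 13 towards a more negative change in Hdac3KO, as deposited. Over all 9969 genes these shares were 2.07% and 1.06%. Counts under the other scalings were not made for this family.

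Other surface and cytoskeletal genes with high levels rose in Hdac3KO and belong to no list. They were chosen after their values were seen. Cd2, the adhesion receptor for CD48, went from 68.4 to 222 FPKM (1.70 ± 0.42) and Cd52 from 226 to 381 (0.76 ± 0.22). Tmsb10, an actin-sequestering thymosin, went from 66.6 to 216 FPKM (1.70 ± 0.42), and Clec2d, a lectin-like ligand, from 48.6 to 166 (1.77 ± 0.44). Among abundant genes that fell, Top2a, the topoisomerase of dividing cells, went from 434 to 99.7 FPKM (-2.12 ± 0.52) and the insulator factor gene Ctcf from 92.3 to 53.8 (-0.78 ± 0.21, deposited q = 0.00633).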
